A study of Rattus norvegicus with 30 samples.

Results

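The CpGs described here are the intermediately methylated cytosines of the rat autosomes, those whose methylation ratio lay between the unmethylated and the fully methylated state. The methylation ratio is the share of bisulfite reads at a cytosine that still read as C, from 0 to 1. Members were the CpG cytosines of the aged and young calls on chromosomes 1 to 20 with values in at least 10 of the 30 rats and an unweighted mean over these rats from 0.3 to 0.7. Left out were 4 loci of 16 to 160 kb, starting near 13.5 Mb on chromosome 1, 46.7 Mb on chromosome 14, 67.0 Mb on chromosome 19 and 39.3 Mb on chromosome 6. Of 85484 CpGs in the table, 62794 autosomal CpGs outside these loci had values in enough rats, and 15094 of them (24.0%) were members. Another 5391 lay below the window and 42309 above it. All positions are those deposited on the rn5 build, and each is 1 cytosine on 1 strand.

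The series holds whole-genome bisulfite sequencing of the medial prefrontal cortex, prelimbic and infralimbic areas together, from 30 male Fischer 344 rats. The 10 young rats were 5 to 6 months old and the 20 aged rats were 17 to 22 months old. Attentional set shifting, scored by trials to criterion, divided the aged rats: 9 were impaired (AI) and 11 were not (AU, for aged unimpaired). The tissue was bulk cortex, so neurons, glia and vascular cells contributed to every ratio. Separate sets of calls were deposited for aged against young rats and for AI against AU rats, and the same 20 aged rats appear in both. The rat identifiers fall into 3 number series, called A, B and C here, which the labels do not explain. Series A held 11 aged and 3 young rats, series B 8 and 3, and series C 1 and 4, so series C and age are close to confounded.

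Methylation of CpG in mammals is written on both strands and copied at replication by the maintenance enzyme Dnmt1, so most CpGs in a cell population are nearly always or nearly never methylated. Intermediate ratios in bulk tissue are known where cell types differ, at the borders of regulatory elements, at imprinted genes, where only the allele of a given parent is methylated, and in repeats. A bulk ratio cannot tell apart a mixture of cells, a mixture of alleles and a mixture of molecules within a cell.

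The members formed the lower shoulder of the methylated peak rather than a peak of their own. The number of members rose across the window, from 1496 with a mean from 0.3 to 0.4 to 2290, 3999 and 7309 in the next 3 bins of 0.1, and 48.4% of the members lay from 0.6 to 0.7. In bins of 0.05, the fewest CpGs of the whole range, 613, had a mean from 0.2 to 0.25, and 638 had one from 0.25 to 0.3. The window has no natural edge at its upper bound. The CpG nearest to it inside was at position 147007096 of chromosome 5 (mean 0.69999, 24 rats), and the nearest outside was at position 6357927 of chromosome 16, whose mean was 0.7 to 6 decimals and just above it (10 rats). At the lower bound the nearest member was at position 154933678 of chromosome 1 (mean 0.300025, 16 rats) and the nearest CpG outside at position 38759595 of chromosome 13 (mean 0.299919, 12 rats). Each rat had a value at 4164 to 13378 of the members, with a median of 9877. The rats of series A had values at 9672 to 13378 members and those of series B at 4164 to 8999, so these series did not overlap in coverage.

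**Figure D1:**
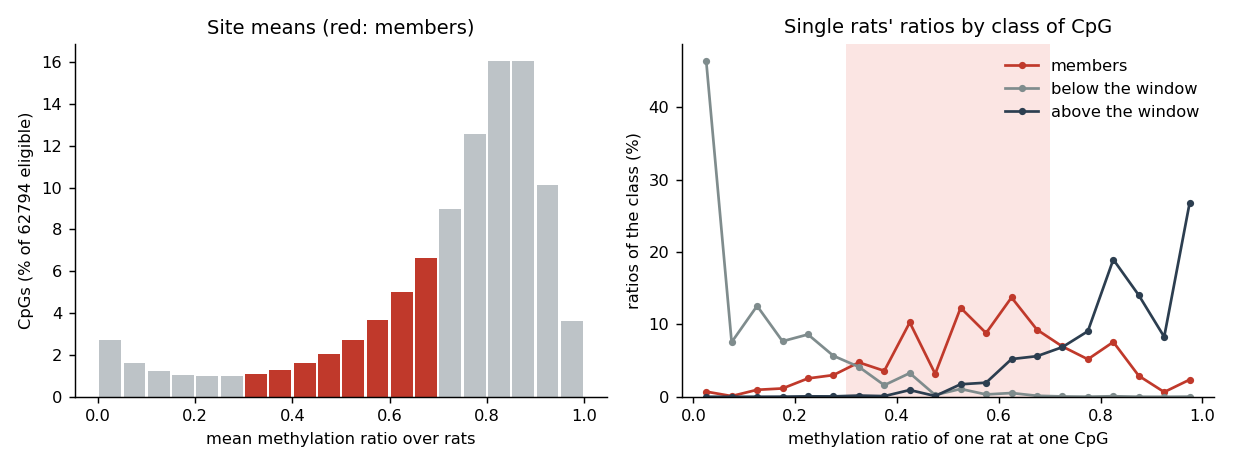
Left, share of the 62794 eligible autosomal CpGs by mean methylation ratio over rats in bins of 0.05, with the members in red. Right, share of single rats' ratios by value for members and for CpGs below and above the window (shaded), where 67.2% of the ratios at members lie inside the window.

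Intermediate means came mostly from rats that were themselves intermediate. Of 284624 ratios of single rats at the members, 67.2% lay from 0.3 to 0.7, 8.47% lay below and 24.3% above. A ratio of exactly 0 made up 0.711% of them and a ratio of exactly 1 made up 2.36%. The share inside the window follows in part from the rule, which used the mean of these ratios. The rule does not fix this split, since a mean of 0.5 can also arise from rats near 0 and rats near 1. Such a split was rare: 5 of the 15094 members had at least 50% of their rats under 0.1 or over 0.9, and 271 (1.80%) had a rat under 0.1 and another over 0.9. Of the members, 13426 (88.9%) had at least 50% of their rats inside the window and 184 had every rat inside. The share of member ratios inside the window ran from 62.6% to 69.9% in the young rats and from 62.8% to 69.7% in the aged rats, so the groups overlapped over nearly their whole range.

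The state also held in rats that had no part in choosing the site. Among 41630 autosomal CpGs outside the 4 loci with values in at least 5 aged and 5 young rats, 10004 had an aged mean from 0.3 to 0.7. The young mean lay in the same window at 7993 of these (79.9%), above it at 17.7% and below it at 2.43%. In the other direction, 10308 CpGs had a young mean in the window and 77.5% of them had an aged mean there too. Of all 41630 CpGs, 24.8% had a young mean in the window and 24.0% an aged mean. The aged and young means of the CpGs chosen in aged rats differed by a median of 0.0503.

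The spread between rats at a member was smaller where more rats had a value. The SD of the ratio between rats had a median of 0.165 over members. It was 0.183 at the 4838 members with 10 to 14 rats, 0.174 at 3852 with 15 to 19, 0.154 at 5271 with 20 to 29 and 0.111 at 1133 with all 30 rats. The number of rats with a value is the only sign of depth in these tables, since reads per site were not part of them and at least 5 reads per rat were required. Counting error alone gives an SD of 0.224 to a ratio of 0.5 read from 5 reads. The SD of 1700 members (11.3%) exceeded the counting SD at 5 reads for their own mean, 1043 of them at members with 10 to 14 rats and 1 at members with all 30. The share of eligible CpGs that were members moved little across these classes, at 23.7%, 24.97%, 24.1% and 22.3%.

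Among the 1133 members with a value in every rat, the 5 with the smallest SD stayed inside or near the window in all rats. The tightest was position 615419 of chromosome 1, with aged rats from 0.571 to 0.712 around a median of 0.655 and young rats from 0.599 to 0.701 around a median of 0.670 (SD over 30 rats 0.0337). Position 174076245 of chromosome 2 had an SD of 0.0378 around a mean of 0.677, position 27413004 of chromosome 1 had 0.0381 around 0.596, position 189729005 of chromosome 4 had 0.0401 around 0.643 and position 24296536 of chromosome 13 had 0.0431 around 0.620. At 3 of these 5 the ratios of 1 to 4 aged rats were slightly different in the AI and AU calls. The 5 with the largest SD ran over most of the range. Position 55360804 of chromosome 16 reached from 0.167 to 1 in aged and in young rats alike (SD 0.231, mean 0.659). The other 4, on chromosomes 5, 8, 2 and 13 (positions 37176176, 65826300, 153313569 and 46236818), had SDs from 0.198 to 0.199.

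Over these 1133 members, the mean ratio of a rat was 0.562 to 0.591 in the aged rats (median 0.578) and 0.558 to 0.590 in the young rats (median 0.575). The groups overlapped throughout, and their means were 0.578 ± 0.00721 (SD, n = 20) and 0.575 ± 0.00855 (SD, n = 10). AI rats had a mean of 0.578 ± 0.0102 (SD, n = 9) and AU rats 0.578 ± 0.00402 (SD, n = 11). No p-value is given for these means, since the members were chosen on the same ratios.

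Members lay next to other members. Within 1000 bp of a member, 37.1% of the other eligible CpGs were members, against 16.6% around CpGs below the window and 19.7% around CpGs above it. Within 100 bp the shares were 40.05%, 12.6% and 18.01%, and within 10000 bp they were 34.6%, 21.9% and 22.9%. The excess around members was thus largest at the shortest distance and still present at 10000 bp. Leaving out cytosines 1 bp away, which can be the other strand of the same CpG, changed the 1000 bp share from 37.1% to 36.6% (a setting chosen after seeing the data). Still, 4242 members (28.1%) had no other member within 1000 bp. These shares count pairs of CpGs, so stretches with many called CpGs weigh most in them. The paper reports that, among repeats, LINE, LTR and satellite elements held the most of its CpGs. Whether neighbouring members were copies of a repeat unit was not tested.

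**Figure D2:**
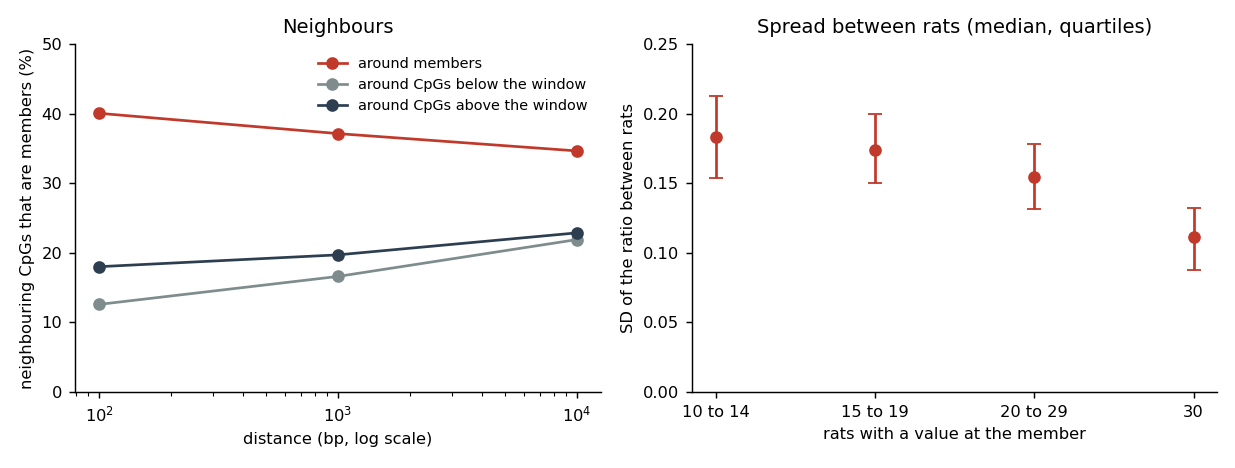
Left, share of eligible neighbouring CpGs that are members within 100, 1000 and 10000 bp (log axis), around members and around CpGs below and above the window, with 37.1% around members at 1000 bp. Right, SD of the ratio between rats at members by the number of rats with a value, as the median with quartiles, falling from 0.183 to 0.111.

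The opposite strand gave a reading of the same CpG from other reads. For 3330 members the deposited positions held an eligible cytosine 1 bp away that paired as the other strand. Its mean was in the window at 2294 of these (68.9%), above it at 26.9% and below it at 4.20%. At CpGs below the window 12.6% of opposite strands were in the window, and at CpGs above it 10.5%. The means of the strands of a member differed by a median of 0.0783, and within a single rat the strands differed by a median of 0.150 over 53759 pairs of ratios. The within-rat difference is of the size of the SD between rats, which was 0.165 at the median member.

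Along the chromosomes the share of eligible CpGs that were members ran from 17.5% on chromosome 11 (277 of 1583) to 29.4% on chromosome 1 (3080 of 10472), with 28.8% on chromosome 19 and 28.2% on chromosome 12. In windows of 1 Mb the members were more concentrated than the eligible CpGs, in that 100 of 2356 windows held 50% of the members and 232 held 50% of the eligible CpGs. The largest number lay on chromosome 1 from 187 to 188 Mb (497 members of 1443 eligible CpGs), followed by chromosome 1 from 188 to 189 Mb (417 of 1024), chromosome 1 from 56 to 57 Mb (375 of 1010), chromosome 13 from 38 to 39 Mb (309 of 927) and chromosome 9 from 11 to 12 Mb (246 of 982). By share, 7 of the 223 windows with at least 50 eligible CpGs had a majority of members, led by chromosome 9 from 6 to 7 Mb (66.8%) and chromosome 5 from 95 to 96 Mb (60.2%). These windows were singled out after their values were seen.

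Runs of at least 5 members with gaps of at most 1000 bp numbered 539 and held 5353 members (35.5%), with a median span of 719 bp. The longest by count lay on chromosome 9 from 6513117 to 6516348, where 104 of 129 eligible CpGs were members. Its members had a median mean of 0.457, and 12 of its other CpGs lay below the window and 13 above. Adjusted for which members each rat had values at, the level of this run was 0.371 to 0.664 in aged rats (median 0.461) and 0.369 to 0.712 in young rats (median 0.475). The ranges of aged and young rats overlapped over nearly their whole length. None of its members had values in all 30 rats, and the rat with the fewest had 5.

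The next 3 runs by number of members held fewer members than other CpGs, most of these above the window. On chromosome 1 from 188036373 to 188044659, 70 of 162 eligible CpGs were members and 83 lay above the window. Its level was 0.480 to 0.726 in aged rats and 0.487 to 0.609 in young rats, with the highest rat of each group resting on values at 3 of the 70 members. Some members of this run stood at even spacing, such as those 5483, 5853, 6223 and 6593 bp from its first member. On chromosome 12 from 5494641 to 5501872, 59 of 207 were members and 136 lay above, and the levels were 0.547 to 0.625 in aged and 0.554 to 0.711 in young rats. The highest young level there rested on values at 6 of the 59 members. The run on chromosome 4 from 209837469 to 209839906 was the best covered, with values in all 30 rats at 32 of its 58 members. Its levels were 0.513 to 0.591 in aged rats (mean 0.547 ± 0.0252, SD, n = 20) and 0.503 to 0.577 in young rats (mean 0.551 ± 0.0208, SD, n = 10). Runs of 53 members each lay on chromosome 1 from 57223376 to 57231143 (53 of 90 eligible) and from 154948741 to 154949712 (53 of 76, none below the window). In the latter, spanning 972 bp, the levels were 0.462 to 0.607 in aged rats and 0.463 to 0.576 in young rats.

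In each of these 6 runs the aged and young levels overlapped. The differences between the age means were -0.0132, -0.00395, -0.0225, -0.00322, -0.00174 and 0.0113 in the order given, each smaller than the SD between rats of either group except on chromosome 12, where the SD of the aged rats was 0.0208. The young mean there includes levels of 0.711, 0.641 and 0.636 from rats with values at 6, 3 and 7 of the 59 members. On chromosome 9 the highest young level, 0.712, came from a rat with values at 14 of the 104 members, and the highest aged level, 0.664, from one with 7. Of the 104, 70, 59, 58, 53 and 53 members, 5, 4, 7, 3, 2 and 1 were past an unadjusted p of 0.05 for age, where 6.13% of all CpGs were, in mixed directions except where there was 1.

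**Figure D3:**
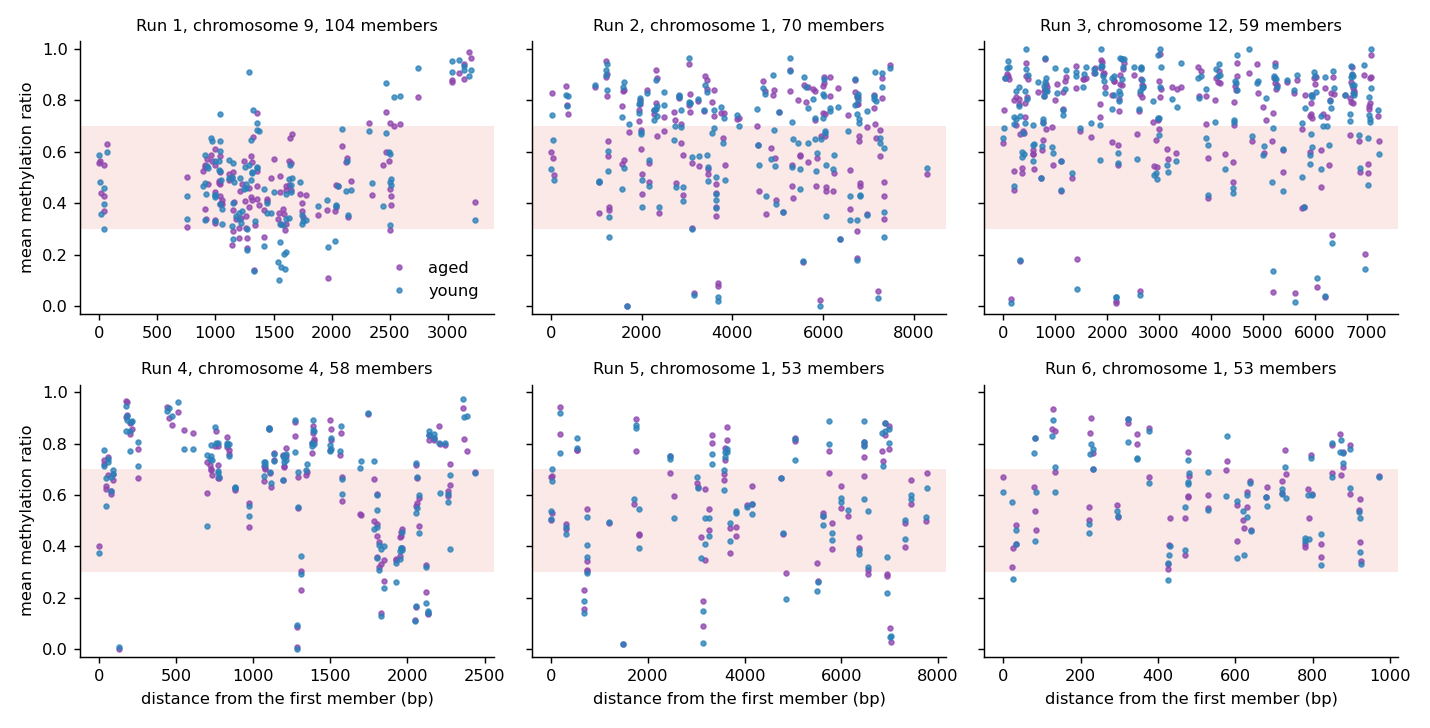
Mean methylation ratio of every eligible CpG in the 6 runs with most members, in aged (purple) and young (blue) rats, against the distance in bp from the first member, with the window of 0.3 to 0.7 shaded. Run 1 is mostly members (104 of 129), while runs 2 to 5 mix members with CpGs above and below the window.

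Cytosines outside CpG near the members were as little methylated as elsewhere. CHG and CHH are the non-CG contexts, H being any base but G. Within 500 bp of a member the mean CHG ratio was 0.0234 over 126678 sites, against 0.0240 near CpGs below the window and 0.0232 near CpGs above it. The mean CHH ratio was 0.0176, 0.0176 and 0.0175 in the same order. Sites with a mean over 0.1 made up 3.64% of CHG sites near members, 3.70% near CpGs below and 3.505% near CpGs above, and 2.80%, 2.76% and 2.79% of CHH sites. A non-CG site can lie near CpGs of several classes, so these sets share sites.

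Members differed between aged and young rats about as often as other CpGs. At an unadjusted p under 0.05 by the per-site test, 906 of 15094 members were called (6.002%), against 6.13% of all 85483 CpGs tested and 6.06% of the eligible CpGs outside the window. Of the called members 459 were higher and 447 lower in aged rats, so that 50.7% were higher. With members chosen by the mean of the aged mean and the young mean, which weights the groups equally, 533 were higher and 366 lower (59.3% higher). Over all CpGs 2.41% were called higher and 3.72% lower in aged rats, and outside the window 2.5% and 3.55%. Higher ratios made up 69.1% of the calls below the window (210 of 304) and 38.1% above it (984 of 2585). The median difference, aged minus young, was 0.00157 over members. The median size of the difference was 0.0575 over all members and 0.179 over the called ones. Among members with all 30 rats 87 of 1133 were called (7.68%), against 219 of 3957 (5.53%) outside the window, while with 15 to 19 rats the shares were 5.74% and 6.52%.

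The calls rarely repeated on the opposite strand. Of the 906 called members, 244 had an opposite strand that was tested. The opposite strand differed in the same direction at 140 of them (57.4%), against 50.6% of 3335 members that were not called. It was itself past the threshold in the same direction at 4 (1.64%) and in the opposite direction at 10. The median difference was 0.167 in size at these called members and 0.0106 at the opposite strands, counted in the member's direction. Outside the window the same direction was seen at 52.9% of 620 called CpGs, and the opposite strand was past the threshold in the same direction at 18 (2.90%) and in the opposite direction at 16.

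The 4 members called alike on both strands are 2 CpGs, both on chromosome 4, named here after their values were seen. At positions 175383346 and 175383347 the ratio was lower in aged rats. On the lower position the aged rats ran from 0 to 1 (mean 0.422 ± 0.267, SD, n = 13) and the young rats from 0.5 to 1 (mean 0.707 ± 0.162, SD, n = 7; exact permutation p = 0.0204). On the higher position the means were 0.560 ± 0.221 (SD, n = 13) and 0.865 ± 0.141 (SD, n = 5; exact permutation p = 0.0131). In the AI and AU calls 2 AI rats had other ratios there and 6 rats had a value in only 1 of the sets. With the 9 aged rats of those calls the age difference was -0.150 in place of -0.305. Without series C the differences were -0.262 and -0.281, against -0.285 and -0.305 with it, and not past 0.05 (exact permutation p = 0.0987 and 0.0554). The higher position differed by -0.408 within series A (exact permutation p = 0.0167), and the lower by -0.175 within series B (exact permutation p = 0.310). As differences of medians the lower and higher position had -0.300 and -0.257 (exact permutation p = 0.0448 and 0.0605), the latter not past 0.05. In the CpG at 209835291 and 209835292, which has values in all 30 rats, the ratio was higher in aged rats. The aged means were 0.649 ± 0.0532 and 0.626 ± 0.136 (SD, n = 20) and the young means 0.569 ± 0.109 and 0.532 ± 0.0872 (SD, n = 10). Permutation p was 0.00959 on the lower and 0.0541 on the higher position, and the aged and young ranges overlapped on both. Within series A the age differences on the lower and higher position were 0.0425 and 0.0489, and within series B 0.124 and 0.235, none of them past 0.05 by exact permutation. Without series C they were 0.0816 and 0.134 (permutation p = 0.0209 and 0.0340), and as differences of medians 0.0850 and 0.0940 (permutation p = 0.0163 and 0.0115). None of these 4 passed adjustment over all CpGs, with adjusted p from 0.514 to 0.814.

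**Figure D4:**
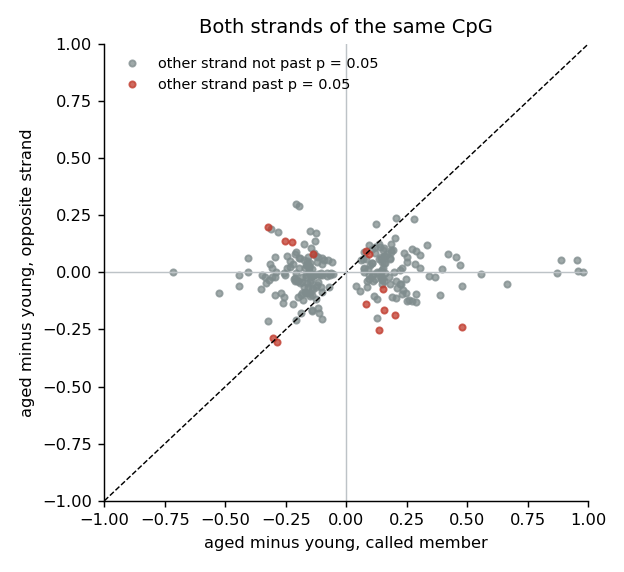
Difference of the mean ratio, aged minus young, at the 244 called members with a tested opposite strand (horizontal axis) and at that strand (vertical axis), in red where the opposite strand was past p = 0.05 too. Points on the dashed line would differ equally on both strands, and 4 of the 14 red points share the member's direction.

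After adjustment over all CpGs, 12 members passed for age, of 59 CpGs in the whole table (0.069%). Of the 12, 10 were higher and 2 lower in aged rats. Their ratios in the AI and AU calls, which hold the same aged rats, are given beside each, because they often were not the same. Of these 12, 11 were in the AI and AU calls, 8 had another ratio there in at least 1 rat, 1 had other rats and 2 had the same ratios in the same rats. Among all 14056 members present in both sets, 34 (0.242%) showed any such difference. For 10 of the 12 an opposite strand was tested. None of these was past the unadjusted threshold, the largest difference there being 0.0944, and the called cytosine was the higher position of the pair in 9 of the 10.

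Of the 12, the 5 with the largest differences were nearly unmethylated in young rats and nearly fully methylated in aged rats. They are the 5 members with at least 50% of their rats under 0.1 or over 0.9. Neither group mean lay in the window at these 5, so the age difference itself placed their overall means inside it. The same held at position 57235604 of chromosome 1 and position 7412965 of chromosome 9. The permutation p of such sites reuses the ratios that made them members. At position 142116434 of chromosome 4 the 4 aged rats with a value were at 1, and the 10 young rats were from 0 to 0.1 (exact permutation p = 0.000999). In the AI and AU calls all 20 aged rats had a value there and ran from 0 to 0.0952, overlapping the young rats, and the age difference of 0.978 became -0.00766. At position 7321433 of chromosome 9 the 13 aged rats were from 0.750 to 1 (median 1) and the 10 young rats from 0 to 0.0588 (permutation p = 2e-05), with no overlap, while the difference of medians, 1, was not past 0.05 (permutation p = 0.182). In the AI and AU calls the AU rats kept their ratios there while the AI rats were from 0 to 0.111. The same was seen at position 11340689 of chromosome 9, with 10 aged rats from 0.8 to 1 and 9 young rats from 0 to 0.1 (exact permutation p = 1.08e-05), and with AI rats from 0 to 0.0652 in the other calls. At position 11340632, 57 bp away, 9 aged rats were at 1 and 10 young rats from 0 to 0.143 (exact permutation p = 1.08e-05), and the AI rats were from 0 to 0.143 in the other calls. At position 54908355 of chromosome 1 the 15 aged rats were from 0.875 to 1 and the 8 young rats from 0 to 0.227 (permutation p = 1e-05, the smallest the resamples can give), and the AI rats were from 0 to 0.250 in the other calls. The opposite strands of these 5 had aged means from 0 to 0.182 and young means from 0 to 0.184.

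A further 4 also changed between the sets of calls, at less extreme levels. Position 57235604 of chromosome 1 had 9 aged rats from 0.667 to 1 and 7 young rats from 0.1 to 0.474 (exact permutation p = 8.74e-05), and the AI mean was 0.307 in the AI and AU calls. Position 118298104 of chromosome 1 had values in 3 aged rats, all AU and from 0.923 to 1, against 10 young rats from 0 to 0.778 (exact permutation p = 0.0035). In the AI and AU calls 9 AI rats joined these at 0.118 to 0.636. Position 44867912 of chromosome 3 had 7 aged rats from 0.7 to 1 and 6 young rats from 0.111 to 0.4 (exact permutation p = 0.000583), and its AI mean was 0.306 in the other calls. At position 7512861 of chromosome 9 it was the AU rats that were lower in the AI and AU calls, at 0.426 ± 0.110 (SD, n = 10), while aged rats in the age calls ran from 0.667 to 1 and young rats from 0.280 to 0.583 (exact permutation p = 0.000583). This site and the second one on chromosome 16 below stood outside the 10 smallest p and were added after their values were seen.

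Of the remaining 3, position 7412965 of chromosome 9 was lower in aged rats and was not in the AI and AU calls. Its 7 aged rats were from 0 to 0.4 and its 4 young rats from 0.8 to 1 (exact permutation p = 0.00303, and 0.0545 for the difference of medians of -0.654), and the opposite strand was at 0 in both groups. The other 2 lay on chromosome 16 and had the same ratios in both sets. At position 74632743 the 12 aged rats ran from 0.556 to 0.889 (median 0.732) and the 5 young rats from 0.4 to 0.471 (median 0.429). All aged rats were above all young rats, with means of 0.721 ± 0.114 (SD, n = 12) and 0.434 ± 0.0258 (SD, n = 5; exact permutation p = 0.000162). The 9 aged and 3 young rats of series A alone differed by 0.264 (exact permutation p = 0.00909). On the opposite strand the means were 0.583 and 0.488. At position 21985424 the 15 aged rats ran from 0 to 0.6 (median 0.429) and the 5 young rats from 0.6 to 0.846 (median 0.8). Of the aged rats 14 were below every young rat, and the means were 0.363 ± 0.174 (SD, n = 15) and 0.770 ± 0.0995 (SD, n = 5; exact permutation p = 0.000129). The 11 aged and 3 young rats of series A alone differed by -0.449 (exact permutation p = 0.00275). On the opposite strand the difference had the other sign, with means of 0.369 and 0.304.

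**Figure D5:**
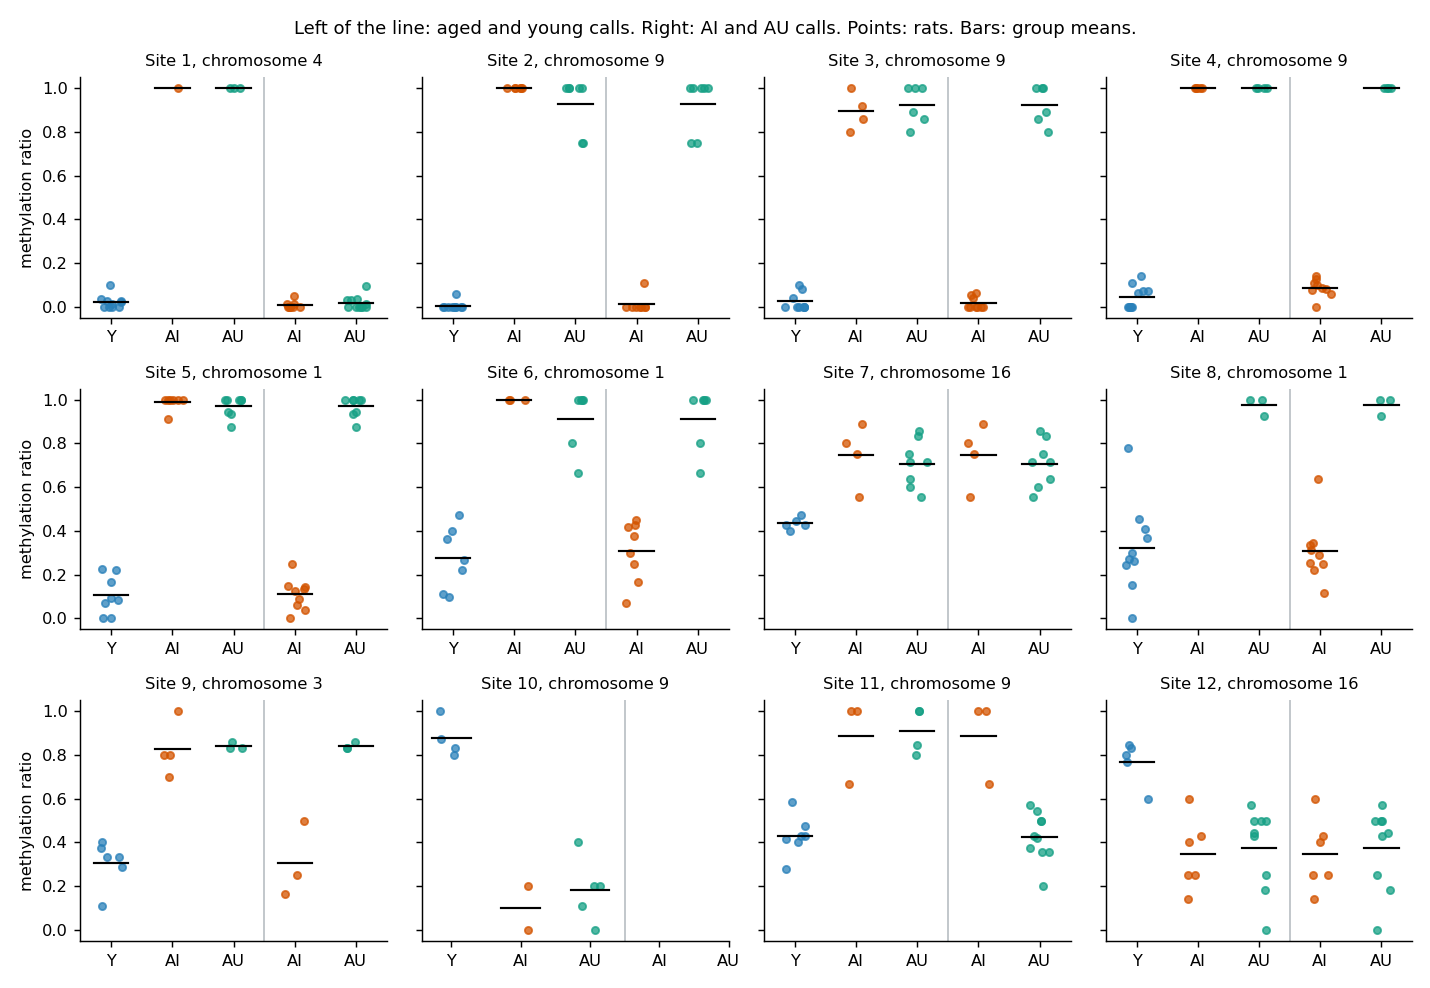
Methylation ratio of each rat at the 12 members past adjustment for age, in order of p, with young (Y), AI and AU rats of the aged and young calls left of the grey line and the same AI and AU rats of the AI and AU calls right of it, and group means as bars. Sites 7 and 12, both on chromosome 16, are the 2 with the same ratios on both sides, and site 10 was absent from the AI and AU calls.

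Restricted to called members with values in at least 10 aged and 5 young rats, the largest rises were 3 of the sites above and 2 more. The rises and falls named here were chosen by their own age differences, so small permutation p-values follow from that choice. Position 170700 of chromosome 5 went from 0.277 ± 0.234 in young rats (SD, n = 5) to 0.598 ± 0.201 in aged rats (SD, n = 10; exact permutation p = 0.0203), with overlap. Rats of series A alone differed by 0.231 (exact permutation p = 0.158), and the difference of medians was 0.327 (exact permutation p = 0.0919), neither past 0.05. Position 39600112 of chromosome 18 went from 0.450 ± 0.103 (SD, n = 5) to 0.740 ± 0.201 (SD, n = 12; exact permutation p = 0.00937), while its opposite strand was lower in aged rats, at 0.379 against 0.507. Rats of series A alone differed by 0.337 (exact permutation p = 0.0364), and the difference of medians was 0.275 and not past 0.05 (exact permutation p = 0.157). Besides position 21985424 of chromosome 16, the largest falls were at 4 sites. At position 10743183 of chromosome 9 the 5 young rats were from 0.9 to 1 and the 11 aged rats from 0.2 to 1, with 10 of them below every young rat (exact permutation p = 0.00229). At position 80428334 of chromosome 13 the means were 0.682 ± 0.182 in young (SD, n = 5) and 0.330 ± 0.0998 in aged rats (SD, n = 14; exact permutation p = 0.000344), with 11 of 14 below every young rat. Position 27186125 of chromosome 7 had means of 0.865 and 0.540 (exact permutation p = 0.003), with a difference of medians of -0.298 that was not past 0.05 (exact permutation p = 0.0659), and position 38668241 of chromosome 13 of 0.733 and 0.425 (exact permutation p = 0.00866), where the opposite strand had 0.552 and 0.533. The ratios at these 6 sites were the same in both sets of calls, and their adjusted p ran from 0.0596 to 0.769.

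AI and AU rats were compared on their own calls, which asks whether ratios differ with set shifting among aged rats. Of 14056 members tested there, 651 (4.63%) were past an unadjusted p of 0.05, against 4.1% of all 80901 CpGs and 4.23% of eligible CpGs outside the window. Of these 316 were higher and 335 lower in AI rats. Over all CpGs 2.08% were called higher and 2.01% lower in AI rats, and outside the window 2.17% and 2.06%. The median size of the difference was 0.0608 over members and 0.196 over called ones. The 5 members past adjustment, of 7 CpGs in all (0.00865%), were positions 7321433, 11340689 and 11340632 of chromosome 9 and 54908355 and 118298104 of chromosome 1. They are 5 of the sites above, where AI rats had other ratios, or ratios only here. All 5 were lower in AI rats, by 0.667 to 0.915, and taken from the aged and young calls no member passed adjustment. With those ratios 643 of 14055 members were past the unadjusted threshold (4.57%).

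The opposite strand of called members was past the threshold in the same direction at 8 of 159 (5.03%) and in the other at 4. Outside the window the counts were 24 of 386 (6.22%) and 10. These 8 members lie in 5 CpGs, named after their values were seen, and each had the same ratios in both sets of calls. On chromosome 8 at 126197473 and 126197474 AI rats were lower on both strands, at 0.306 ± 0.0682 (SD, n = 4) against 0.436 ± 0.102 in AU rats (SD, n = 8; exact permutation p = 0.0444) and at 0.392 ± 0.126 (SD, n = 6) against 0.571 ± 0.0807 (SD, n = 8; exact permutation p = 0.00966). On chromosome 4 at 240831841 and 240831842 AI rats were higher, by 0.150 (exact permutation p = 0.0614) and 0.0961 (exact permutation p = 0.0309). On chromosome 19 at 40171068 and 40171069 they were higher by 0.148 (exact permutation p = 0.0444) and 0.146 (exact permutation p = 0.0280). The others were position 136126715 of chromosome 1, higher in AI rats by 0.287 (exact permutation p = 0.00855), and position 1608958 of chromosome 7, where the 4 AI rats were from 0.4 to 0.556 and the 7 AU rats from 0.6 to 1 with no overlap (exact permutation p = 0.00606). AI and AU ranges overlapped at all of these but the last, and the adjusted p was 1 in each case.

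Gene names come from the positions the study lists for genes with a difference for age or a relation to set shifting. The listed positions were also correlated with RNA levels in the study. The list was drawn from these same rats and is therefore no independent evidence of a difference. Of its 615 positions 313 were eligible and 80 were members (25.6%, against 24.0% of all eligible CpGs), in 69 genes. Of the eligible positions, 69 of 262 in introns, 3 of 32 in exons, 4 of 13 at exon and intron borders and 4 of 6 in promoters were members. None of the members was in a gene of the imprinted list (1 eligible position) or the glutamate receptor list (2 eligible positions). By the per-site tests 15 of the 80 were past the threshold for age, against 6.13% of all CpGs, and 6 of 79 for impairment, against 4.1%, on a list that was drawn from such differences.

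Both eligible positions of the calcium and potassium channel list were members, with ratios that overlapped between aged and young rats. The intronic CpG of Kcnip4, whose protein binds and modulates A-type potassium channels, had aged rats from 0.2 to 1 and young rats from 0.375 to 1 (position 66769485 of chromosome 14, 15 rats). The intronic CpG of Kcnh8, an ether-a-go-go type potassium channel, had aged and young rats from 0.2 to 1 (position 37079745 of chromosome 9, 11 rats). Neither was past the threshold for age or for impairment. Cacnb4, an auxiliary subunit of voltage-gated calcium channels that the list did not hold, had an intronic member with aged rats from 0.4 to 0.889 and young rats from 0.429 to 0.875 (position 43116743 of chromosome 3, 15 rats). This site was added outside the naming rule, after its values were seen.

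In the synaptic adhesion and scaffold list 5 of 16 eligible positions were members, none called for age and 1, in Ctnna2, for impairment, where 6.13% and 4.1% of all CpGs were called. Cntnap5b and Cntnap5c encode neurexin-like cell adhesion proteins of the Caspr family. The 2 intronic members of Cntnap5b had means of 0.665 and 0.560 (positions 26973829 and 27008261 of chromosome 13, 13 rats each) and that of Cntnap5c 0.534 (position 12343070 of chromosome 13, 20 rats). Ctnna2, the neural alpha-catenin that links cadherins to actin, had an intronic member with a mean of 0.599 in 10 rats (position 173123195 of chromosome 4). Its 3 AI rats were from 0.4 to 0.5 and its 3 AU rats from 0.6 to 0.75 (exact permutation p = 0.1, the smallest p that 3 against 3 allows), with no overlap. Ptk2, focal adhesion kinase, had an exonic member at position 114498195 of chromosome 7, which was not called, with a mean of 0.414 in 3 AI rats and 0.849 in 3 AU rats (exact permutation p = 0.1).

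Of the other named members, the 10 with values in most rats were taken. The best covered were an intronic CpG of LOC100364190 (position 141196987 of chromosome 4), with aged rats from 0.333 to 0.667 and young rats from 0.529 to 0.714 (permutation p = 0.0054, adjusted p = 0.450), and one of RGD1559588 (position 22079253 of chromosome 12), with aged rats from 0.375 to 0.9 and young rats from 0.417 to 0.833, both in 29 rats. At position 37508930 of chromosome 19 in LOC100363633, AI rats had a mean of 0.543 and AU rats 0.652 (exact permutation p = 0.0476, n = 8 each), although it was not called by the per-site test. By that test the members in RGD1306739 and Zfp167 were called lower in aged rats, with means of 0.658 against 0.789 (permutation p = 0.108) and 0.645 against 0.781 (permutation p = 0.0593). In RGD1306739 the 11 aged and 2 young rats of series A differed by 0.0109 in the other direction. The others were in Adam32, LOC100361380, LOC100364581 (2 positions) and Tbc1d5, a GTPase-activating protein of endosomal trafficking, with means from 0.483 to 0.632 in 24 or 25 rats.

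Between the first and last listed position of 58 genes, where these lay within 500000 bp, 527 of 1844 eligible CpGs were members (28.6%). The most lay in LOC100363633 on chromosome 19 from 37384608 to 37516212 (85 of 244, member means from 0.353 to 0.7) and in LOC100364581 on chromosome 15 from 9488922 to 9579569 (66 of 154, from 0.309 to 0.699). Cd99l2, a transmembrane adhesion protein related to CD99, had 26 members of 56 eligible CpGs on chromosome 15 from 9865540 to 9911325. In these 3 spans 5, 4 and 1 members were past the unadjusted threshold for age, against 6.13% of all CpGs.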

How the data were processed

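Whole-genome bisulfite libraries of 30 rats were processed by the authors, who per the submitters' processing notes and the study's methods trimmed reads with Trimmomatic, checked them with FastQC, aligned them to rn5 (Rnor_5.0) with BSMAP, removed reads with unconverted cytosines, and called methylation with cscall at sites with at least 5 reads in at least 3 rats of each group. The deposited values are methylation ratios, a fraction from 0 to 1 per rat and cytosine. Reads per site are not part of the tables, so precision rests on the number of rats. All rat columns were mapped to a sample (0 were not). The CHG and CHH calls of AI and AU rats were not used. Positions are printed as deposited, and whether they count from 0 or 1 is not given in the sources used here.

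The members and gene lists were chosen with earlier results of these data known. Each CpG of the whole table with at least 3 rats per group was tested by Welch's test, with Benjamini-Hochberg adjustment over all CpGs. A CpG constant and equal in both groups was given p = 1. Named CpGs were tested by 2-sided permutation, exact up to 200000 arrangements and otherwise with 100000 resamples. These p-values are not adjusted. At CpGs chosen by their own differences they reuse the ratios that chose them. The labels name each rat once, so the p-values measure the spread between rats.

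Opposite strands were taken from even-length chains of consecutive positions. Ratios of 1 rat differed between sets of calls where they were over 0.001 apart. A run level is the mean over its members plus the rat's mean deviation from the member means. CpGs named were the 10 smallest p past adjustment in each comparison, the 5 largest rises and falls among called members with at least 10 aged and 5 young rats, the 5 runs with most members (6 with a tie), the 5 smallest and 5 largest SDs among members with all 30 rats, those nearest to each bound, and listed genes of the imprinted, glutamate receptor, channel and synaptic lists, otherwise the 10 with most rats. Alternatives were limma 3.58.1 on ratios, on logit ratios (offset 0.05) and with the number series as covariate, other minimum numbers of rats, other windows, medians, and leaving out each series. The scripts, tested on simulated data, ran in Python 3.11.15 with numpy 2.4.6, pandas 2.3.3 and scipy 1.17.1, and in R 4.3.3.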

Additional observations from a re-analysis of the deposited data

Results flagged for a closer look

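Among 173 groups of 4 to 10 rats checked, 13 had a rat that stood apart from the others. For normal values chance gives about 1 in 20. Ratios often tie at 0 or 1, where this rate need not hold. If all other rats tie, any other value is flagged, however close. Ratios are those of the aged and young calls. In young rats the highest ratio stood apart at position 142116434 of chromosome 4 (0.1, next 0.0357), position 7321433 of chromosome 9 (0.0588, all others 0), position 27186125 of chromosome 7 (1, next 0.857), position 189729005 of chromosome 4 (0.713, next 0.667) and position 9570365 of chromosome 15 (0.8, next 0.5), and the lowest at position 23487226 of chromosome 20 (0.545, next 0.8). In AI rats the lowest stood apart at position 54908355 of chromosome 1 (0.913, all others 1), position 10743183 of chromosome 9 (0.3, next 0.571), position 175383347 of chromosome 4 (0.222, next 0.462), position 240831841 of chromosome 4 (0.533, next 0.714) and position 9520337 of chromosome 15 (0.357, next 0.6). In AU rats it was position 37079745 of chromosome 9 (0.2, next 0.6). In the run on chromosome 1 from 188036373 to 188044659 a young rat with values at 3 of the 70 members had a level of 0.609 (next 0.551). At position 209835292 of chromosome 4 the age difference in series A minus that in series B was -0.186 (permutation of series within age group, p = 0.0316, of 13 sites compared, not adjusted).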

How the results depend on the processing

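The share of members past the unadjusted threshold ran from 5.13% to 7.68% over 14 alternatives for age. For AI and AU it ran from 3.92% to 6.49% over 15. Over all CpGs, where this was computed, the shares ran from 4.58% to 6.64% and from 3.74% to 5.83%. The members called were often not the same. With the number series as covariate, 478 of the 959 members called for age were among the 906 called before. Without series C these were 336 of 678, and without series A 164 of 420. Of the calls for age 45.3% to 59.3% were higher (59.3% with the mean of the group means), and of those for AI and AU 43.4% to 52.4%. The number of members was 6404 with at least 20 rats and 1133 with all 30. The adjusted count for age, 12, was 2 without series A, 3 with at least 20 rats, 0 with all 30 rats (where 87 were past the unadjusted threshold by Welch's test), 7 in the window from 0.4 to 0.6, 22 from 0.2 to 0.8, 7 with membership by the median, and 2 over members with the same ratios in the same rats in both sets of calls, an alternative chosen after seeing the data. It was 10 and 8 by limma on ratios and logit ratios. For AI and AU it was 3 with at least 5 rats per group, 0 without series A, 2 with at least 20 rats, 0 with all 30, 1 with membership by the median, 0 with the ratios of the aged and young calls, and 0 over members with the same ratios. At these counts of 0, the members past the unadjusted threshold were, in that order, 182 of 4640 tested (3.92%) and 46 of 1133 (4.06%). The next were 643 of 14055 (4.57%) and 641 of 14022 (4.57%). Over all CpGs 3.74% passed without series A and 4.23% with the ratios of the aged and young calls. Without series A fewer members could be tested, 4640 against 14056 for AI and AU and 8195 against 15094 for age. The other windows, minimum rats and sets hold fewer or more CpGs by construction; without series A the cause was not tested.

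The share of rats' own ratios inside 0.3 to 0.7 was 69.8% with at least 20 rats, 75.03% with all 30, 76.6% for members from 0.4 to 0.6 and 50.2% from 0.2 to 0.8. The median SD was 0.148 with at least 20 rats, 0.111 with all 30 and 0.156 from 0.2 to 0.8. The share of neighbours was 35.5% with at least 20 rats, 19.9% from 0.4 to 0.6 and 56.0% from 0.2 to 0.8. Members made up 23.8%, 10.0% and 47.6% of the eligible CpGs of each setting, in the same order. For the main members the share of neighbours was 40.05% within 100 bp, 34.6% within 10000 bp and 36.6% without cytosines 1 bp away. The mean CHG ratio near members was 0.0246 with at least 20 rats and 0.0253 with all 30. No age difference at the 22 CpGs re-examined changed sign within series A or B (where at least 2 rats per group had values), without series C or as a difference of medians, although 10 of them lost the threshold under at least 1 of these, position 142116434 of chromosome 4 and position 118298104 of chromosome 1 within series A with 3 rats per group and p = 0.1 by exact permutation, the smallest possible. No paired analysis was possible because the labels give the groups no shared replicate numbers. Depth limits single members, since at 5 reads a ratio moves in steps of 0.2.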

Other observations

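At the 33 members whose ratio differed between the sets of calls in at least 1 aged rat, 112 ratios differed, 64 in AI rats and 48 in AU rats, by a median of 0.197. In 14 of these members the differing ratios were all of AI rats, in 13 all of AU rats, and in 6 of both. Of the differing ratios 73 were lower in the AI and AU calls and 39 higher. Of the members with a paired opposite strand, 18 of the differing ones were the higher position and 5 the lower, where the members present in both sets had 1636 and 1781. What made the sets of calls differ was not tested.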
